A study of Rattus norvegicus with 2 samples.

Results

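Calcineurin, the phosphatase switched on by calcium and calmodulin, was followed together with the NFAT transcription factors it activates and the RCAN proteins that restrain it, in cultured rat astrocytes with and without 5ppase. The genes were a given list of 10: the catalytic subunits Ppp3ca, Ppp3cb and Ppp3cc, the regulatory subunit Ppp3r1, the factors Nfatc1, Nfatc2, Nfatc3 and Nfatc4, and the inhibitors Rcan1 and Rcan2. All 10 were found on the array, among 14218 named genes, through 20 probe sets that carry a single gene symbol. A probe set is a group of short probes that together report a transcript as a signal.

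The control culture was Sprague-Dawley rat hippocampal astrocytes of embryonic day 18, of a genotype labelled normal, expressing the red fluorescent protein vector IRES2-RFP. The 5ppase culture shared its strain, age, tissue and genotype and expressed 5ppase-IRES2-RFP, written 55ppase-IRES-RFP in a second label. The series describes calcium signalling as active in the first and as absent in the second, so the comparison asks how transcripts of the calcium-activated phosphatase pathway stood in these states. The name 5ppase commonly stands for an inositol phosphate 5-phosphatase, which removes the messenger that opens calcium stores, but the labels do not spell it out. What promoter drove the vector, in which share of cells and for how long, is not stated in the labels. Each culture was read on 1 Affymetrix array. There are no replicates, so every difference below is between these 2 arrays, has no replicate check and carries no p-value.

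As background, calcineurin is a dimer of a catalytic and a regulatory subunit. When calcium rises, calmodulin frees its active site, and the enzyme removes phosphates from NFATc1 to NFATc4, which then enter the nucleus and bind DNA, often beside AP-1. Kinases such as GSK3, DYRK1A and casein kinase 1 return the factors to the cytoplasm. RCAN proteins bind calcineurin and inhibit it, and a short form of Rcan1 is itself transcribed under NFAT control, which makes a feedback loop. In astrocytes the pathway is best known from reactive and inflammatory states. The arrays measured transcripts, whereas the pathway is switched by dephosphorylation, which was not analysed here.

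A gene was represented by its brightest probe set. It was compared where its signal lay above a floor of 62.0 on both arrays and reached 208 on at least 1, and 9 of the 10 genes met this; Nfatc2 was too dim. Of these 9, 1 was at least 2-fold apart, Nfatc4, which was lower in 5ppase, beside 2.92% of all 8261 compared genes. It was also the only compared member at least 1.5-fold apart, so that 11.1% of the compared members passed that limit, beside 10.7% of all compared genes. The log2 ratio, 5ppase over control here and throughout, was negative for 5 of the 9 (55.6%, beside 52.1% of all compared genes) and positive for 4. Its median over all 10 genes was -0.28, beside -0.01 over the 10255 genes with a mean signal above the floor.

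**Figure D1:**
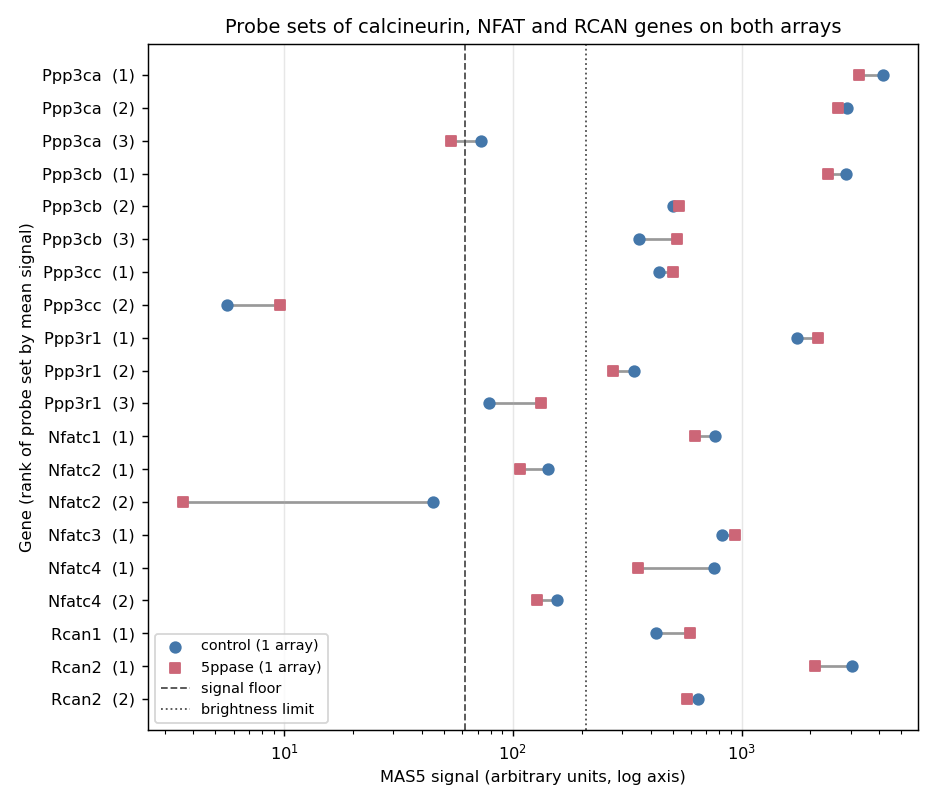
Signals of all 20 probe sets on the control array (circles) and the 5ppase array (squares), on a log axis; each row is a probe set, numbered by mean signal within its gene, the dashed line is the floor of 62.0 and the dotted line the brightness limit of 208. The widest gap among probe sets right of the dotted line on at least 1 array is that of the brightest Nfatc4 probe set, 754 in control and 351 in 5ppase.

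The only measure of error in these data is the disagreement between probe sets of the same gene. By this measure a log2 ratio had an SD of 0.255, taken from the 1883 genes that have a second compared probe set, which covers probe noise and not variation between cultures. The members' own probe sets disagreed visibly. Of the 4 members with at least 2 compared probe sets, 2 had ratios of both signs, Ppp3cb and Ppp3r1; over all genes the brightest and second probe sets differed in sign for 34.3% of the 1883.

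Ppp3ca encodes the alpha catalytic subunit, the main calcineurin catalytic subunit of brain. Its brightest probe set (1373479_at) gave 4169 in control and 3244 in 5ppase, a log2 ratio of -0.36. The second gave 2899 and 2636, a ratio of -0.14. Both were slightly lower in 5ppase, by 1.28-fold and 1.10-fold, and 0.22 apart on the log2 scale, which is within the probe set spread. The remaining probe set was dim, at 72.5 and 53.8, and lay above the floor in control only.

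Ppp3cb, the beta catalytic subunit, which is also widely expressed, gave no common direction. Its brightest probe set (1375882_at) read 2869 on the control and 2384 on the 5ppase array, for a log2 ratio of -0.27. The second was at 502 and 532 (0.08). The third was at 356 and 524 (0.56), just under 1.5-fold higher in 5ppase. The ratios of these probe sets of a single gene spanned 0.82, well beyond the spread of 0.255, so neither a higher nor a lower total can be read from them.

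Ppp3cc encodes the gamma catalytic subunit, known best from testis and present in brain. It gave 437 on the control and 501 on the 5ppase array (log2 ratio 0.20), a difference within the probe set spread. Its other probe set lay far under the floor, at 5.6 and 9.6. Over the 3 catalytic genes, 3 of the 6 compared probe sets were lower in 5ppase and 3 higher, with ratios from -0.36 to 0.56.

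Ppp3r1 encodes calcineurin B, the calcium-binding regulatory subunit without which the catalytic subunits are inactive. The brightest of its probe sets (1372982_at) read 1749 on the control and 2166 on the 5ppase array, for a log2 ratio of 0.31. The second gave 338 and 274 (-0.30), of nearly the same size in the opposite direction. The remaining probe set, above the floor on both arrays and not bright, gave 78.4 and 133.1 (0.76). With these probe sets 1.06 apart on the log2 scale, the direction for Ppp3r1 depends on the probe set read.

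Nfatc4, an NFAT factor expressed in brain and known from neuronal responses to neurotrophins, stood furthest from equality among the compared members. Its brightest probe set (1390573_a_at) gave 754 in control and 351 in 5ppase, a log2 ratio of -1.10, or 2.15-fold lower in 5ppase. Of all 8261 compared genes, 86 had a lower ratio. The suffix _a_at marks a probe set that can read several transcripts of its gene. The second Nfatc4 probe set (1392426_x_at), of a kind whose probes may also match other sequences, gave 156 and 127 (-0.30), above the floor on both arrays and not bright. Both were lower in 5ppase, but they were 0.81 apart, and only the first was past 1.5-fold.

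Nfatc1, the factor with the best known autoregulated short isoform, had a single probe set (1378389_at). It read 764 on the control and 624 on the 5ppase array, for a log2 ratio of -0.29. Nfatc2, a factor prominent in T cells, gave 142 and 108 at its brighter probe set (-0.39), above the floor on both arrays but under the brightness limit. Its dimmer probe set lay under the floor on both, at 44.6 and 3.6, and gives no ratio. Nfatc3, a broadly expressed factor reported in astrocytes and smooth muscle, gave 819 and 935 at its single probe set (0.19), the only NFAT gene of the 4 with a higher signal in 5ppase. The differences of Nfatc1 and Nfatc2 were somewhat larger than the probe set spread, and that of Nfatc3 was smaller. The median log2 ratio over the 4 NFAT genes was -0.34.

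The 2 RCAN genes pointed in opposite directions. Rcan1, the feedback inhibitor, gave 421 in control and 596 in 5ppase at its single probe set (1388686_at), a log2 ratio of 0.50, or 1.41-fold higher in 5ppase. Of all compared genes, 6.95% had a higher ratio. Rcan2, a related inhibitor abundant in brain and heart and not known for the same feedback control, gave 3038 and 2083 at its brightest probe set (1389066_at), a ratio of -0.54, or 1.46-fold lower, and 6.51% of compared genes had a lower ratio. Its second probe set gave 644 and 579 (-0.15), lower by less than the probe set spread. The ratios of Rcan1 and of the brightest Rcan2 probe set were 1.04 apart. Both genes lay within 1.5-fold. The probe sets are not assigned to the short or the long Rcan1 form in the tables used here.

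The promoter of Rcan1 is shown because a short form of Rcan1 is known to be transcribed under NFAT control. The RefSeq promoter table of build GRCr8 held 6 of the 10 members, and the 250 bases before the listed Rcan1 start are at chr11:45118237-45118486, minus strand. They were searched for the NFAT core motif GGAAA on both strands, that is GGAAA or TTTCC, and matches are in capitals:

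Rcan1: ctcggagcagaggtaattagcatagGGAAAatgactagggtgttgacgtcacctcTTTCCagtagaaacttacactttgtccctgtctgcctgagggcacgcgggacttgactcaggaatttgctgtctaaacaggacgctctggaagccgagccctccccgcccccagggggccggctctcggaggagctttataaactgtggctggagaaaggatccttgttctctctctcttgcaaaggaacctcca

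There were 2 matches, which begin at -225 and -195 from the start. At least 2 matches occurred in 22.9% of all 33469 windows of that length, and at least 1 in 56.9%. Of the 6 members in the table, 3 had a match: Rcan1, and Ppp3cb and Ppp3r1 with 1 each. Nfatc1, with its autoregulated short isoform, was not in the table. The table lists a single start per gene, which for Rcan1 is not assigned here to the short or the long form. Another Rcan1 promoter is not covered, and a match is a description of letters and not of binding.

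**Figure D2:**
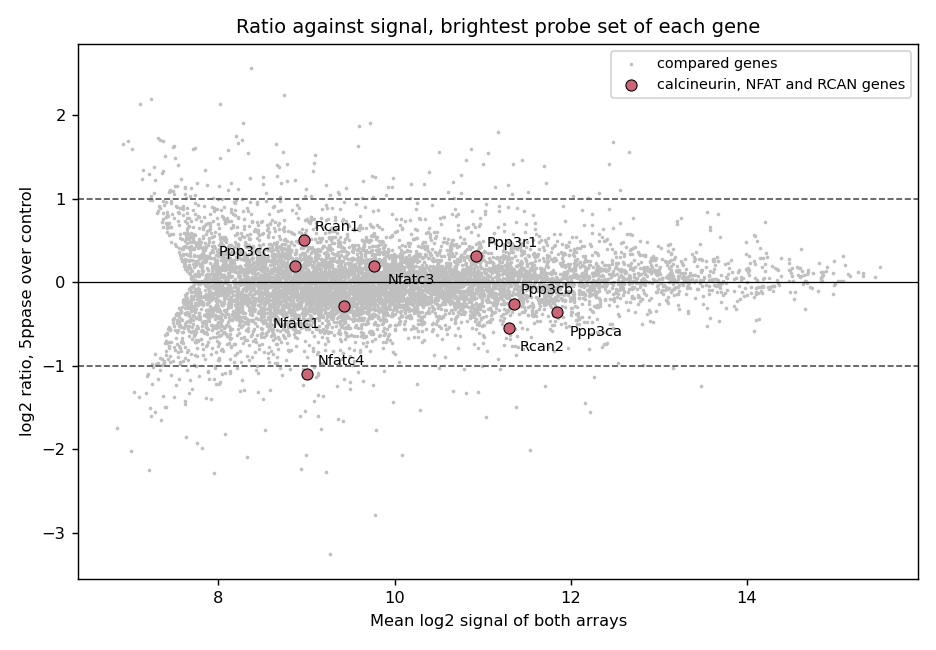
Log2 ratio of 5ppase over control against mean log2 signal for the brightest probe set of each of the 8261 compared genes (grey) and the 9 compared calcineurin, NFAT and RCAN genes (labelled); dashed lines mark 2-fold. Nfatc4 at -1.10 is the member beyond a dashed line, and Rcan1 at 0.50 is the highest of the 9.

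Ordered by log2 ratio, the 9 compared genes ran from Nfatc4 (-1.10) through Rcan2 (-0.54), Ppp3ca (-0.36), Nfatc1 (-0.29), Ppp3cb (-0.27), Nfatc3 (0.19), Ppp3cc (0.20) and Ppp3r1 (0.31) to Rcan1 (0.50). Neighbours were apart by more than the probe set spread at 2 places, between Nfatc4 and Rcan2 (0.56) and between Ppp3cb and Nfatc3 (0.46). The other neighbours in this order were not separated beyond that spread. All 10 genes kept their sign under each of the 4 other scalings of the arrays. The values as deposited, counted among these 4, equal the reported ones to within rounding, so that setting could not differ. The sign of Ppp3cb changed with the mean of its probe sets (0.12) or the second (0.08), and that of Ppp3r1 with the second (-0.30).

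**Figure D3:**
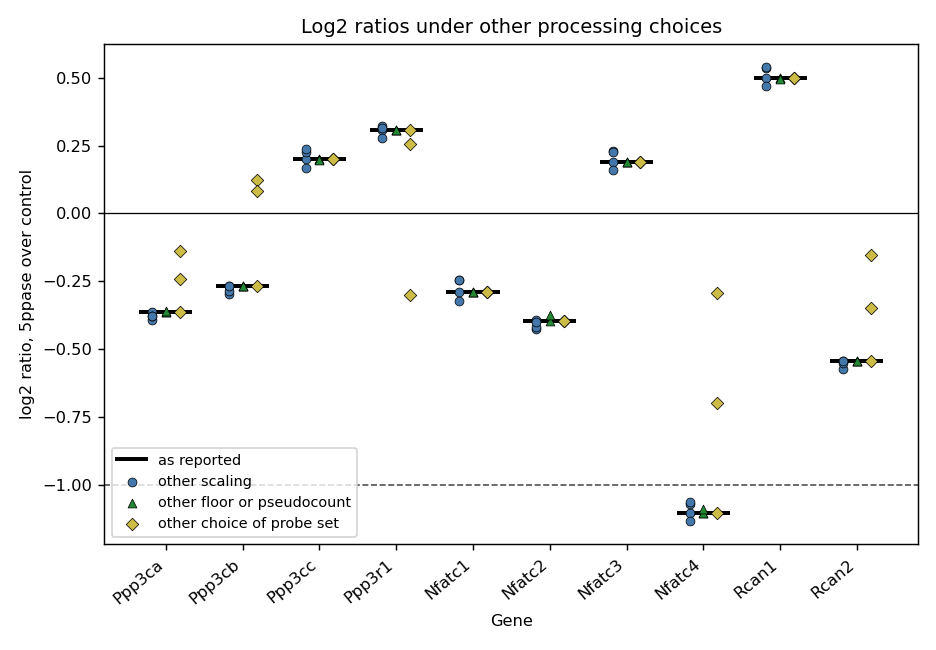
Log2 ratio of each of the 10 genes as reported (black bar) and under other scalings of the arrays (circles), other floors or a pseudocount (triangles) and other choices of probe set (diamonds); the dashed line marks 2-fold lower. Scaling and floor moved the genes little, whereas the choice of probe set moved Nfatc4 from -1.10 to -0.30 and turned the sign of Ppp3cb and Ppp3r1.

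Of the other genes of the pathway, 72 in 5 lists, 65 were on the array and 44 were compared; 4 of the 44 were at least 2-fold apart, beside 2.92% of all compared genes. The calcium sensor itself was read through Calm2, which read 15381 on the control and 14328 on the 5ppase array, for a log2 ratio of -0.10. Among calcineurin's anchors, inhibitors and drug-binding partners, 5 of 8 genes were compared. Of these 5, 1 was at least 1.5-fold apart, beside 10.7% of all compared genes. It was Akap5, the postsynaptic anchor of calcineurin and protein kinase A, at 206 and 323 (0.65). Akap5 reached the brightness limit in 5ppase only. The list median was 0.04. The testis regulatory subunit Ppp3r2 stayed below the floor on both (5.2 and 10.2), and Rcan3, the remaining family inhibitor, was at 67.4 and 48.6.

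Kinases that rephosphorylate NFAT, its nuclear import and export receptors and the Homer scaffolds formed the next list. At their brightest probe sets all 14 compared genes of 15 on the array lay within 1.5-fold, as did 89.3% of all compared genes, and the list median was 0.00. The largest ratio was that of the import receptor Kpnb1 (1239 and 1592, 0.36). The casein kinase Csnk1a1 gave 6857 and 5824 (-0.24), and -0.14 at its other compared probe set. Csnk1d gave 2107 and 1707 (-0.30), but its other compared probe sets gave -0.04, 0.39 and 0.02, so its direction depends on the probe set. A dimmer compared probe set of the stress kinase Mapk8 gave 151.5 and 253.1 (0.74), past the limit that its brightest (0.22) did not reach. That dimmer probe set reached the brightness limit in 5ppase only. A further compared Mapk8 probe set gave 229.4 and 199.3 (-0.20), so the direction for Mapk8 also depends on the probe set.

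Among other calcineurin substrates, with the calcium-independent factor Nfat5 added, 2 of 13 compared genes were at least 1.5-fold apart, both lower in 5ppase and both past 2-fold, beside 1.42% of all compared genes that much lower. Ppp1r1a, inhibitor 1 of protein phosphatase 1, whose inhibition calcineurin lifts, read 3674 on the control and 1201 on the 5ppase array, for a log2 ratio of -1.61. Its second probe set gave 630 and 193 (-1.71). Tfeb, the lysosomal gene activator that calcineurin releases to the nucleus, gave 369 and 166 at its single probe set (-1.16), and reached the brightness limit in control only. The second probe set of Ppp1r1a thus repeated the first closely. The list median was -0.02 over the 13.

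Reported target genes of NFAT formed the last list, which was not limited to genes that NFAT activates. Like the other lists, it was chosen with earlier results of these data known. Of 26 on the array 11 were compared, 5 of them at least 1.5-fold higher in 5ppase, beside 5.25% of all compared genes, and 1 at least 1.5-fold lower, beside 5.46%. The highest ratios were those of Ptgs2, the inducible cyclooxygenase (339 on the control and 852 on the 5ppase array, 1.33 on the log2 scale), and the cytokine Il6 (1194 and 2499, 1.07). Tissue factor (F3, 1541 and 2622, 0.77), the calcium release channel Itpr1 (1516 and 2300, 0.60) and the neurotrophin Bdnf (533 and 801, 0.59) followed. Bdnf lay just past the 1.5-fold limit, and its second probe set was level, at 124.4 and 123.6. The early response factor Egr2 went the other way, at 563 and 341 (-0.72). The median over the 11 was 0.33, beside -0.02 over all compared genes. It is the value of Vcam1 (177.5 and 223.6), which reached the brightness limit in 5ppase only. The median was 0.03 over all 26 genes with a pseudocount and no floor, and 0.59 over 8 genes once the floor was raised to the 60th percentile. The lymphocyte cytokines of the list, Il2, Il4, Il13 and Ifng, stayed below the floor on both, and several listed genes also answer to other factors such as NF-kappa B.

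**Figure D4:**
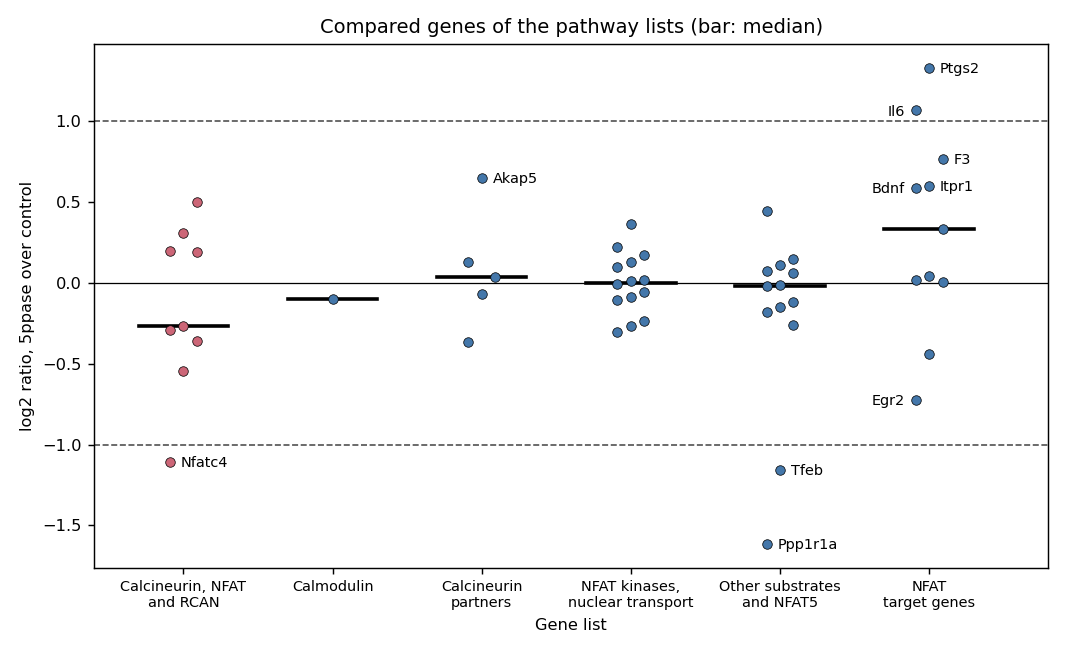
Log2 ratio of 5ppase over control for compared genes of the calcineurin, NFAT and RCAN group and of 5 pathway lists; each point is a gene at its brightest probe set, bars are medians, dashed lines mark 2-fold and genes at least 1.5-fold apart are named. NFAT kinases lie near 0, whereas the listed NFAT targets spread from -0.72 for Egr2 to 1.33 for Ptgs2.

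Markers of cell types also differed between the arrays, and in bulk RNA fewer cells of a type and less RNA per cell cannot be told apart. Of 17 astrocyte markers on the array 2, Slc1a2 and Ntsr2, were under the floor on both arrays, and Aldh1l1 was near it (62.9 and 49.8), whereas Cst3 gave 36010 in control and 37891 in 5ppase and Clu 25302 and 22091. Of the 13 compared astrocyte markers, 7 were at least 1.5-fold lower in 5ppase, beside 5.46% of all compared genes, Fabp7 (-2.01), Mlc1 (-1.30) and Gfap (-1.24) among them. Aqp4 gave 432.3 in control and 25.1 in 5ppase, the latter under the floor, and so was not compared. Its other probe sets were under the floor on both arrays. At their brightest probe sets Gja1 (0.07), S100b (0.05) and Id4 (0.20) were near equal. A dimmer compared Gja1 probe set gave 121.1 and 249.2 (1.04), reaching the brightness limit in 5ppase only. The other compared Id4 probe sets ran from -0.32 to 0.59. The summed signal of the astrocyte list was 119912 in control and 96113 in 5ppase. Of 18 neuron markers 11 were under the floor on both arrays, Rbfox3, Snap25 and Syt1 included, yet their summed signal was 7556 and 14003, mostly through Stmn2 (1.56). Tubb3 (1.72), Gad1 (-1.24) and Map2 (-0.52) were the other named ones. Tubb3 gave 87.9 in control and 290.2 in 5ppase, and so reached the brightness limit in 5ppase only. A dimmer Tubb3 probe set, at 20.1 and 47.7, gave no signal above the floor. Of 12 microglial markers 8 were under the floor on both, and the sum was 1357 and 2681, mostly Tmem119 (1.08), with Csf1r at 0.17. Sums were 3912 and 2250 for oligodendrocyte lineage markers (Cnp -0.43, Pdgfra -0.66, Cspg4 1.27), most of the difference from Cldn11 at 1371 and 47.2, with 6 of 11 under the floor on both. They were 129954 and 127077 for fibroblast and meningeal markers (Col1a1 -0.02, Col3a1 0.14, Mgp -3.26, Igfbp5 -2.06), with 2 of 12 under the floor on both. They were 1498 and 880 for endothelial markers, the largest part from Ocln at 1211.7 and 384.0 (-1.66), with 8 of 11 under the floor on both. Flt1 gave 74.1 and 127.5 (0.78), under the brightness limit. A dimmer Flt1 probe set gave 88.1 and 63.3 (-0.48), so its direction depends on the probe set. The part of these differences in the values of Nfatc4, the RCAN genes and the pathway lists was not tested.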

How the data were processed

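For each probe set the authors deposited a linear intensity, computed with MAS5 according to the submitters' processing notes, which name no version. The deposited columns shared a trimmed mean of 500.2 (2% cut at either end). Arrays were rescaled to a common trimmed mean, which changed no value by more than rounding, so printed signals are the deposited ones. Control signals ran from 0.1 to 43892 and 5ppase signals from 0.2 to 49734, and 0 sample columns were left unused.

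Gene names came from a platform annotation, which can be old: of 31099 probe sets, 20832 had 1 symbol, 436 several and 9831 none. All 10 members matched a current RefSeq gene (GRCr8). A floor was set at the 40th percentile of all signals (62.0), lower signals were lifted to it ahead of the log2 step, and a compared gene also reached the 60th percentile (208). This understates ratios of dim genes. The number of arrays limits the precision. Levels of different genes are not comparable between probe sets; signal served only to choose which probe sets or list genes to name and to sum marker lists within an array.

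The genes named are all 10 members, with every probe set; from each pathway list the compared genes at least 1.5-fold apart, at most 6, or else the 2 brightest; and from each marker list the 2 brightest and up to 3 compared genes at least 2-fold apart. Rcan3, Ppp3r2, Vcam1, Kpnb1, Mapk8, Cldn11, Aqp4, the astrocyte markers near 0 and the under-floor cytokines and markers were named after their values were seen. Members and lists were chosen with earlier results of these data known. The ratio and threshold steps were tested on simulated data. Python 3.11.15, pandas 2.3.3 and statsmodels 0.14.6 were used.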

Additional observations from a re-analysis of the deposited data

How the results depend on the processing

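The count of members at least 2-fold apart was 1 of 9 as reported and under the values as deposited, the common median, quantile normalization, loess, the floor at the 25th percentile and the removal of _x_at and _s_at probe sets. The values as deposited equal the reported ones to within rounding, and no member's brightest probe set is an _x_at or _s_at one. These settings therefore could not change the count. The count was 1 of 8 with the floor at the 60th percentile and 1 of 10 with the pseudocount. It was 0 when the probe sets of a gene were averaged, where Nfatc4 had a log2 ratio of -0.70, and 0 at a 3-fold threshold. With second probe sets 0 of the 4 members left were at least 2-fold apart, and 0 of 4 at least 1.5-fold. Nfatc4 was not among these 4 because its second probe set was not bright, so that setting could not count it. The median over the members ranged from -0.31 with a common median to -0.06 with the mean of probe sets. Calcineurin partners had 1 gene at least 2-fold apart with the pseudocount and no floor, in place of 0. The other calcineurin substrates had 2, but 1 with the floor at the 60th percentile, 4 with the pseudocount, 1 with second probe sets and 1 at 3-fold. The NFAT targets had 2, but 8 with the pseudocount and 0 at 3-fold. With the pseudocount 14.7% of all genes were at least 2-fold apart, beside 2.92% as reported. No paired analysis was possible because each group has 1 array and the labels give no replicate numbers. Leaving out a replicate was not possible for the same reason. With no replicates, a log2 ratio or median was taken as moved when it shifted by more than the probe set spread of 0.255. A count was taken as moved when it changed by more than 1.5-fold, or to or from 0.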

Other observations

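In the culture that the series describes as without calcium signalling, 5 of 11 compared genes of the NFAT target list were at least 1.5-fold higher. That held for 5.25% of all compared genes. At least 1.5-fold lower was 1 of the 11, beside 5.46% of all compared genes. Those higher were Ptgs2 (log2 ratio 1.33), Il6 (1.07), F3 (0.77), Itpr1 (0.60) and Bdnf (0.59), whereas Egr2 (-0.72) was lower. Rcan1, a member outside that list, was 1.41-fold higher at its single probe set (0.50), under the 1.5-fold limit. Of all compared genes, 6.95% had a higher ratio than Rcan1. The second Bdnf probe set was level, at 124.4 and 123.6. The list median of 0.33 is the value of Vcam1, which reached the brightness limit in 5ppase only. That median was 0.03 over all 26 genes with a pseudocount and no floor, and 0.59 over 8 genes with the floor at the 60th percentile. Myc, chosen after its value was seen, stood at -0.44. Egr3, likewise picked with its values known, gave 97.0 in control and 6.0 in 5ppase, the latter under the floor. The list was chosen with earlier results of these data known, so its counts describe these arrays and are no test. All these values come from 1 array per culture, and the cause was not tested.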
